A study of Homo sapiens with 2 samples.

Results

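The genes described are the 4 tissue inhibitors of metalloproteinases (TIMP1, TIMP2, TIMP3 and TIMP4), the gelatinases MMP2 and MMP9, and the membrane-anchored matrix metalloproteinases MMP14, MMP15 and MMP16. They were chosen by name, with earlier results of these data known, and are 9 of 19974 protein-coding genes on chromosomes 1 to 22 and X. Every JUNB peak whose summit lay within 50 kb of the RefSeq span of one of them on GRCh38 was taken. This gave 32 of 32550 peaks in the untreated library and 22 of 25739 in the etoposide library. JUNB is a subunit of the transcription factor AP-1. Its binding was profiled by CUT&RUN, in which an antibody-guided nuclease cuts out the bound DNA, which is then sequenced, in IMR-90, an established human fetal lung fibroblast line. There was 1 library of cells with no treatment and 1 of cells treated with etoposide (ETO), a topoisomerase II poison that breaks DNA and is used to bring fibroblasts into senescence. The labels give no dose, no time and no further alteration of the cells for either library. No difference below has a replicate check, and the treatment was not tested. Peak lists give no expression level, so the fibroblast label was not checked against marker genes.

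Matrix metalloproteinases are zinc proteases that cut collagens, basement membrane and cell surface proteins. TIMPs bind their active site and block it. MMP14, TIMP2 and MMP2 work as a chain: MMP14 at the cell surface holds TIMP2, this complex captures the inactive form of MMP2, and a free MMP14 beside it cuts MMP2 into its active form. AP-1 is a known regulator of several MMP and TIMP genes, and secreted matrix proteases and their inhibitors belong to the factors that senescent fibroblasts release.

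All 9 genes had an untreated summit within 50 kb, where 72.0% of protein-coding genes did, and 7 of 9 had an etoposide summit, where 62.6% did. Both libraries had one at 7 of 9 genes, against 58.6%. TIMP1 and MMP15 had untreated peaks alone. That is 2 of 9 genes, against 13.5% of all genes. No gene had etoposide peaks alone, against 4.05% of all genes. The median number of peaks per gene was 2 in both libraries for the 9 genes, and 2 untreated and 1 etoposide over all protein-coding genes. TIMP2 and MMP16 held 17 of the 32 untreated peaks and 11 of the 22 etoposide peaks. Without these 2 genes the counts were 15 and 11.

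Peaks of the 2 lists that overlapped by 1 bp or more are called shared. Of the untreated peaks near the 9 genes, 18 of 32 were shared, 56.3% (95% exact binomial interval 37.7% to 73.6%), against 51.0% of all untreated peaks. Of the etoposide peaks, 19 of 22 were shared, 86.4% (65.1% to 97.1%), against 64.8% of all etoposide peaks. Both intervals cover counting error only. With both lists held to the same length, 15 of 21 untreated and 16 of 22 etoposide peaks were shared, 71.4% and 72.7%. The shares of the libraries were closer there than with the full lists. Nearly the same number of peaks is shared from either side, 18 and 19 in the full lists. Each share therefore depends on the number of peaks it is divided by. No share over all peaks is given for lists of equal length. Over the whole untreated list, 70.4% of peaks above the median rank were shared, and 31.6% below it. The ratio of etoposide to untreated peaks was 0.688 near the 9 genes and 0.791 over both whole lists.

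**Figure D1:**
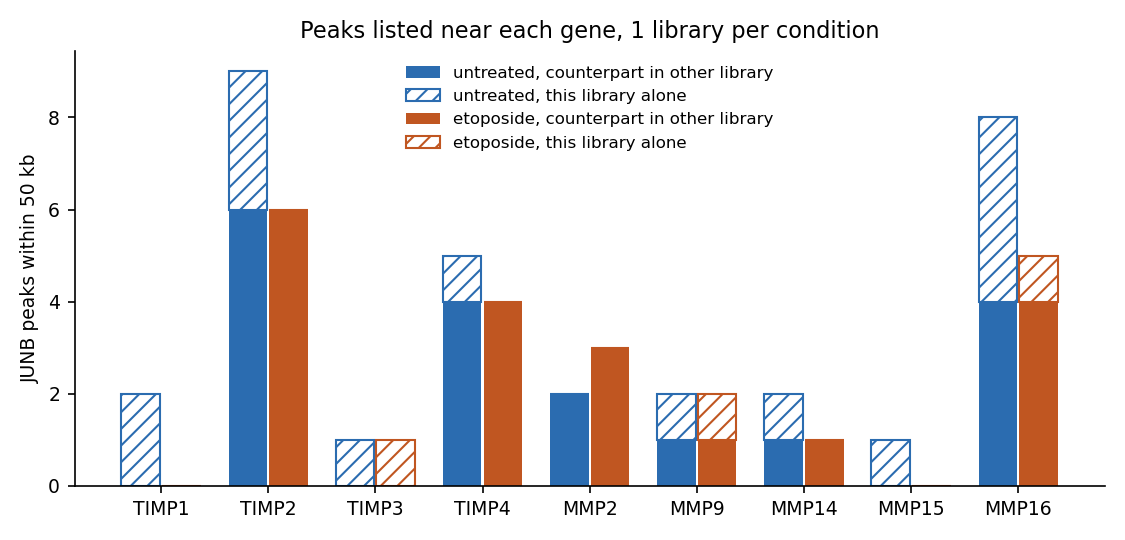
JUNB peaks with a summit within 50 kb of each gene (vertical axis, number of peaks), in the untreated library (blue) and the etoposide library (orange). Solid parts are peaks with a counterpart in the other library and hatched parts are peaks of that library alone, so TIMP1 and MMP15 have hatched blue bars only, and TIMP2 and MMP16 have the tallest bars, at 9 and 8 untreated peaks.

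The height of a peak is given below as the number of DNA fragments piled up at its summit, recovered from the fold and p that the authors deposited. Heights near the 9 genes ran from 8 to 64 fragments in the untreated library (median 17; 15 over the whole list) and from 7 to 56 in the etoposide library (median 13; 13 over the whole list). The etoposide library was estimated at 0.836 times the depth of the untreated library. A rank is the place of a peak in its own list by the authors' -log10 q, with 1 the strongest.

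TIMP2 had the highest peaks of the set. TIMP2 inhibits most MMPs and is the member that links MMP14 to pro-MMP2. The gene lies on chromosome 17 from 78852977 to 78925387, and the small gene CEP295NL lies within its span. An untreated peak inside TIMP2 at chr17:78862151-78862461 had 64 fragments (exact Poisson interval 49.3 to 81.7) and ranked 55 of 32550. Its etoposide counterpart at chr17:78861963-78862443 had 56 fragments (42.3 to 72.7) and ranked 49 of 25739. The summits were 11 bp apart, and the ratio of etoposide to untreated fragments, 0.875 (0.600 to 1.27 from counting), was at percentile 64.2 of all 17119 shared pairs.

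Part of this place could be read, because it overlaps the start of LOC124904068, an uncharacterised long non-coding RNA gene inside TIMP2. The RefSeq start window of that gene, 250 bases before to 50 after its start on the plus strand of GRCh38.p14, spans chr17:78861975-78862274. It is shown because 124 of its 300 bases lie under the untreated peak and all 300 under the etoposide peak. The capitals mark a match to the AP-1 motif TGANTCA.

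LOC124904068 start window, inside TIMP2: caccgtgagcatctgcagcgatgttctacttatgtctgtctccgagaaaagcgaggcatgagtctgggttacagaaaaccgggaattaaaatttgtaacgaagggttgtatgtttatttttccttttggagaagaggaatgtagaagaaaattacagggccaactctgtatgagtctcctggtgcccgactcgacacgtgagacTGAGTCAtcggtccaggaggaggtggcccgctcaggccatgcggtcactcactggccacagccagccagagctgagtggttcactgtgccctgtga

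The match, TGAGTCA, lies at 78862179 to 78862185, inside both peaks, 107 bp from the untreated summit and 118 bp from the etoposide summit. Both summits lie beyond the end of the window, in sequence not used here. The motif reads the same on both strands. Over all 34789 RefSeq start windows of this length, 7.69% held TGANTCA. It was present in 14.5% of the 3077 windows that an untreated peak overlapped, in 28.2% of the 981 that an etoposide peak overlapped, and in 31.3% of the 732 overlapped in both libraries. Among the 2345 windows overlapped in the untreated library alone it was present in 9.21%. A match is a description of these letters and does not show where JUNB was bound.

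The other peaks of TIMP2 lay in its body and on both sides of it. A second shared peak inside the gene, at chr17:78883462-78883975 in the untreated list, had 30 fragments untreated and 23 with etoposide. Beyond the high-coordinate end there was a group of peaks, the nearest of them 8.37 kb away. The tallest of them, at chr17:78935643-78936467, had 45 untreated fragments, and its counterpart at chr17:78935974-78936448 had 23. Their ratio was 0.511 (0.295 to 0.863), at percentile 11.5 of all shared pairs, and the 2 summits were 373 bp apart. A shared peak at 8.78 kb had 27 and 20 fragments. Beside it an untreated peak with 20 fragments had no counterpart, and the nearest etoposide summit was 0.453 kb away. These peaks stood on local backgrounds of 5.17 to 5.23 fragments in the untreated library, where the median of the list was 1.27, and their etoposide counterparts on 2.29 and 2.36, where the median was 0.907. The part of this background in the heights was not tested. A shared peak with 20 and 13 fragments lay inside the neighbour LGALS3BP, at the very edge of the window, and an untreated peak without counterpart, 31.8 kb from TIMP2, had 8 fragments. On the low-coordinate side, inside the neighbour USP36, a shared peak 29.9 kb away had 8 and 7 fragments. Another untreated peak without counterpart, 11.8 kb away and overlapping a start window of USP36, had 11 fragments. In all TIMP2 had 9 untreated and 6 etoposide peaks, and all 6 etoposide peaks were shared. At least as many peaks were found at 3.23% of protein-coding genes in the untreated library and at 5.20% in the etoposide library. Its window had 5.22 untreated peaks per 100 kb and chromosome 17 had 1.43.

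**Figure D2:**
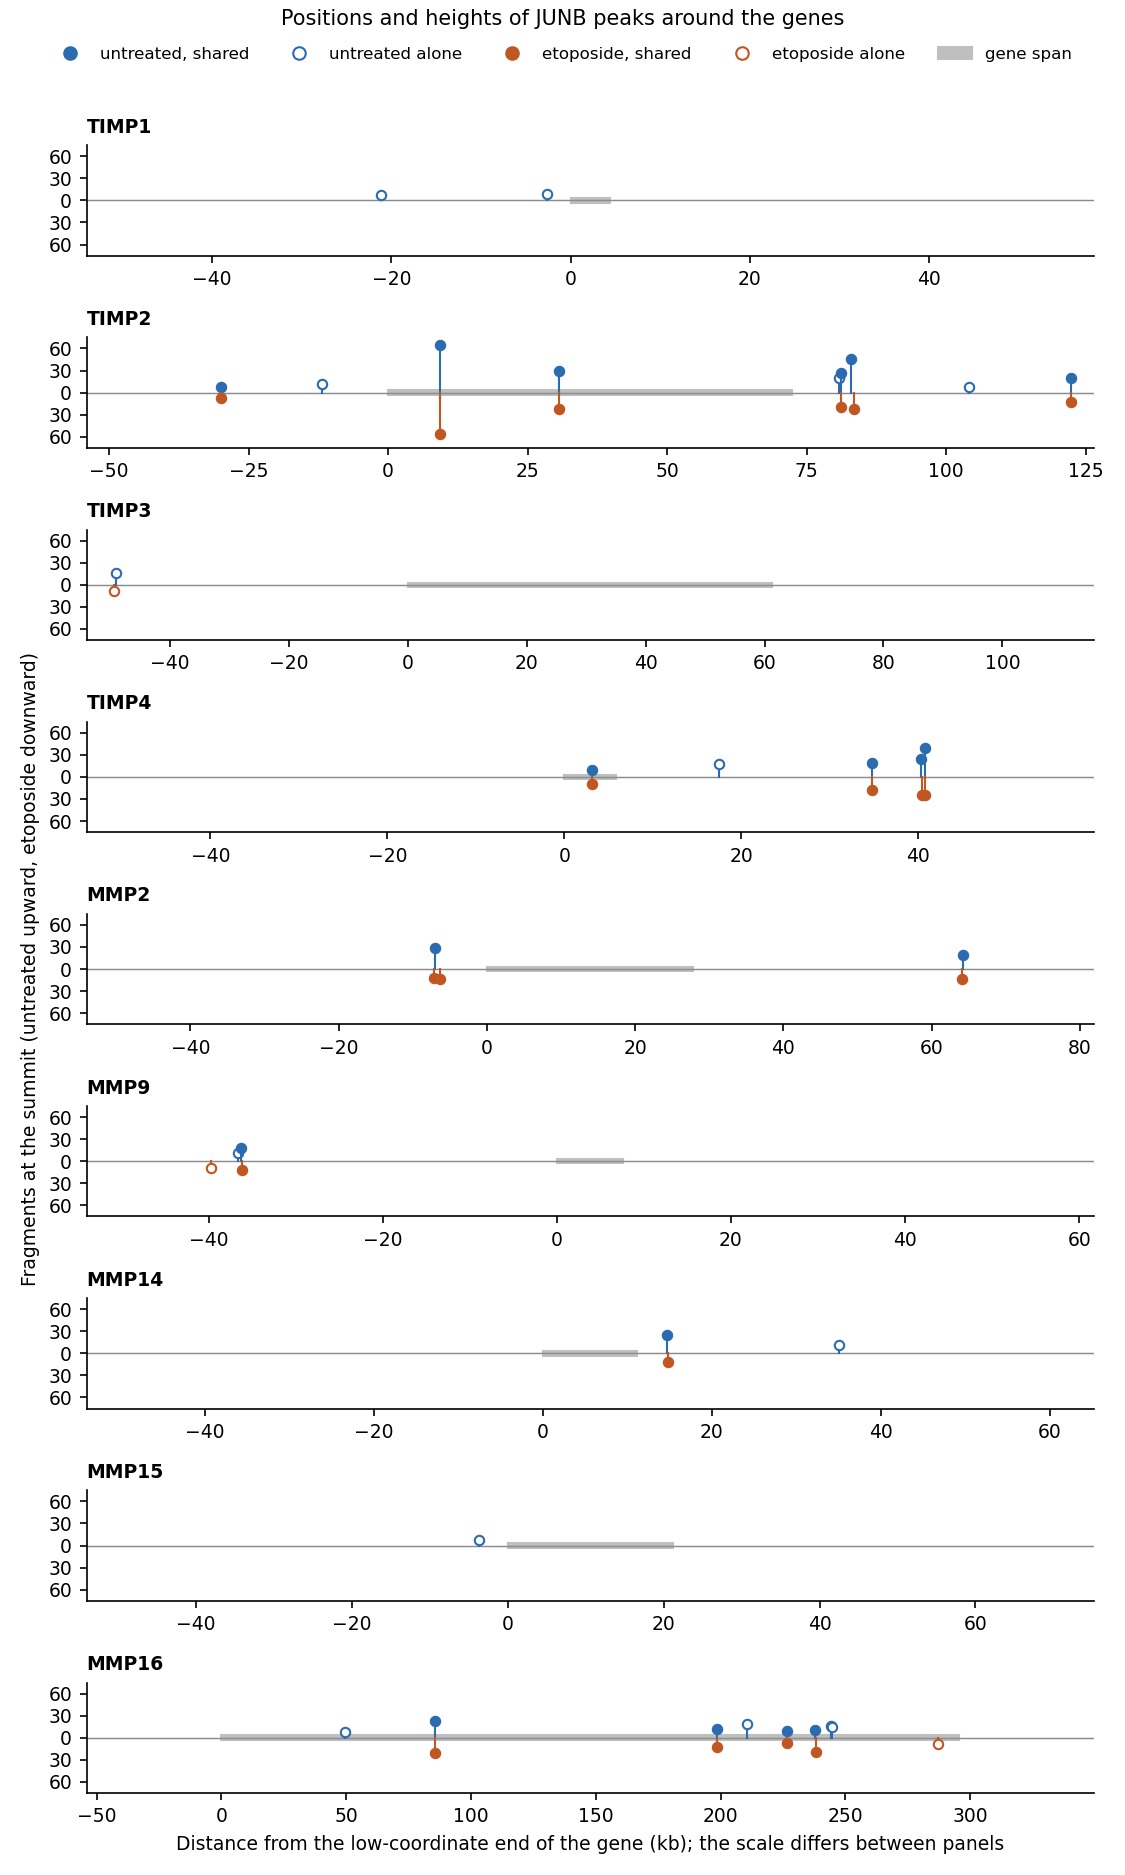
Positions of JUNB summits around the 9 genes, 1 panel per gene, as distance in kb from the low-coordinate end of the gene (grey bar, gene span), with untreated peaks drawn upward and etoposide peaks downward to the number of fragments at the summit. Filled points are shared peaks and open points are peaks of 1 library alone. The tallest pair, 64 and 56 fragments, stands inside TIMP2, and the panels of TIMP1 and MMP15 hold open untreated points of 8 or 9 fragments.

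The other 3 TIMP genes each lie wholly within a synapsin gene, TIMP1 in SYN1, TIMP4 in SYN2 and TIMP3 in SYN3. Synapsins are proteins of synaptic vesicles. A peak near one of these TIMPs is therefore often also inside a synapsin gene, and the lists do not say which gene a peak acts on.

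TIMP1, which inhibits most secreted MMPs, MMP9 among them, and blocks membrane MMPs poorly, lies on X from 47582436 to 47586789. It had 2 untreated peaks, both weak and neither shared. One at chrX:47579749-47579983, inside SYN1 and 2.62 kb from TIMP1, had 9 fragments (4.12 to 17.1) and ranked 29169. The other, at chrX:47561178-47561379, had 8 fragments (3.45 to 15.8), ranked 28691 and overlapped the start of ARAF. The nearest etoposide summit to TIMP1 was 75.4 kb away. The lowest of all listed peaks in either library had 5 fragments. At -log10 q of at least 5 neither untreated peak was listed. Chromosome X had 0.331 untreated and 0.231 etoposide peaks per 100 kb, fewer than the chromosomes of the other members. The window of TIMP1 had 1.92 untreated peaks per 100 kb. At least 2 untreated peaks were found at 52.5% of protein-coding genes.

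The TIMP1 promoter holds TGAGTAA, an AP-1 site known from work on this gene. Its start window on GRCh38.p14, chrX:47582186-47582485 on the plus strand, is shown with that site in capitals, because it could be looked up and no listed peak of either library overlapped it. This motif was searched on both strands, after the sequence had been seen.

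TIMP1 start window: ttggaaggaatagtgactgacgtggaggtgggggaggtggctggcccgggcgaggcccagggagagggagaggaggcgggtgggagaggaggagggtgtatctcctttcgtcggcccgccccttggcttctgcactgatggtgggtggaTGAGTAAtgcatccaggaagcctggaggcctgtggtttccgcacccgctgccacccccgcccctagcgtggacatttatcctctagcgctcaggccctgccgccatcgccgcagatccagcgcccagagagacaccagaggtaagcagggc

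The site lies at 47582335 to 47582341. TGAGTAA on either strand was present in 2.57% of all start windows. The RefSeq table held start windows for 5 of the 9 genes, TIMP1, TIMP3, TIMP4, MMP14 and MMP15. No listed peak of either library overlapped any of these 5, where 8.84% of all windows were overlapped by an untreated and 2.82% by an etoposide peak. None of the 5 held TGANTCA or the related TGACGTCA, which was present in 1.84% of all windows.

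TIMP3, the TIMP that binds to the extracellular matrix and also inhibits ADAM17, had no peak in its span of 61.3 kb on chromosome 22, from 32801705 to 32863041. Its only summits within 50 kb lay near the edge of the window, inside SYN3. The untreated peak, at chr22:32752577-32752800 and 49.0 kb away, had 16 fragments (9.15 to 26.0) and ranked 10442. The etoposide peak, at chr22:32752321-32752509 and 49.3 kb away, had 9 fragments (4.12 to 17.1) and ranked 16955. They did not overlap, with summits 323 bp apart, so TIMP3 had a peak in each library and no shared one. When a peak of the other list within 1 kb was counted as a counterpart, they were.

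TIMP4, known for its high expression in heart, had 5 untreated and 4 etoposide peaks, of which 4 in each library were shared. The gene lies on chromosome 3 from 12153068 to 12158912. A weak shared peak inside the gene, at chr3:12156095-12156300 in the untreated list and chr3:12156021-12156224 in the etoposide list, had 10 and 9 fragments. The taller peaks lay at or just beyond the far end of SYN2. One inside SYN2, 29.0 kb away at chr3:12187798-12188309, had 19 untreated and 18 etoposide fragments. A pair of neighbouring places just beyond SYN2, 34.5 and 34.9 kb from TIMP4, had 24 and 39 untreated fragments and 24 and 25 etoposide fragments. The taller of these ranked 2647 of the untreated list, at chr3:12193735-12194404. An untreated peak at 11.7 kb with 18 fragments had no counterpart, and the nearest etoposide summit was 14.5 kb away. The window had 4.72 untreated and 3.78 etoposide peaks per 100 kb, where chromosome 3 had 1.15 and 0.907. At least as many peaks as at TIMP4 were found at 15.2% of protein-coding genes in the untreated library. In the etoposide library this was 13.6%.

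MMP2, gelatinase A, is made by fibroblasts and digests denatured collagen and basement membrane. The gene lies on chromosome 16 from 55478830 to 55506691 and had no peak in its span. On its low-coordinate side the untreated library had 1 broad peak at chr16:55471680-55472787, with its summit 7.01 kb from the gene, 28 fragments (18.6 to 40.5) and rank 5326. The etoposide library listed 2 narrower peaks under it, at chr16:55471688-55472040 with 12 fragments (6.20 to 21.0) and at chr16:55472208-55472609 with 13 (6.92 to 22.2). Set against the untreated summit, their ratios were 0.429 (0.199 to 0.870) and 0.464 (0.221 to 0.926), at percentiles 4.71 and 7.03 of all shared pairs. Their summits were 56 and 665 bp from the untreated summit, so the second ratio compares heights at different positions under the broad peak. MMP2 was the only one of the 9 genes with more etoposide than untreated peaks, 3 against 2, and this came from the split of that place. The other place, inside LPCAT2 and 36.4 kb away, had 19 and 13 fragments.

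MMP9, gelatinase B, is inducible and in many cells responds to AP-1 and NF-kappa-B. The gene lies on chromosome 20 from 46008908 to 46016561. No listed summit of either library was closer than 36.2 kb. The shared peak there, at chr20:45972631-45972846 in the untreated list and chr20:45972635-45972862 in the etoposide list, had 18 and 12 fragments and lay next to the start of ZNF335, a zinc finger gene. An untreated peak without counterpart, at chr20:45972055-45972384 with 11 fragments, overlapped that start. An etoposide peak without counterpart, at chr20:45969081-45969269 with 9 fragments, lay inside ZNF335. All peaks counted for MMP9 were thus nearer to ZNF335. The ZNF335 start window, chr20:45972154-45972453 on the minus strand of GRCh38.p14, is shown because the peak of the untreated library alone covers 231 of its 300 bases. Its capitals mark a match to TGACGTCA, which ATF and CREB proteins and some JUN-containing dimers bind.

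ZNF335 start window: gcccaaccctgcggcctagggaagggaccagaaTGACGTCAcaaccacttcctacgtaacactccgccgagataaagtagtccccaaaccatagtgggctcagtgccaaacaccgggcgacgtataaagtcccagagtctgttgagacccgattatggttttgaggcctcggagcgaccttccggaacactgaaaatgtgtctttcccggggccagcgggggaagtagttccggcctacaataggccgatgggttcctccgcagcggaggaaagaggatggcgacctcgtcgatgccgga

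The match, at 45972413 to 45972420, lay 29 bp outside that untreated peak, and outside the shared peak as well. TGACGTCA reads the same on both strands and does not overlap a TGANTCA match here.

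MMP14, the main membrane-anchored activator of MMP2, lies on chromosome 14 from 22836585 to 22847758. A shared peak stood 3.56 kb beyond the end of the gene. The untreated peak, at chr14:22851210-22851473, had 25 fragments (16.2 to 36.9) and ranked 4101. The etoposide peak, at chr14:22851265-22851454, had 12 fragments (6.20 to 21.0) and ranked 14914. The ratio was 0.480 (0.220 to 0.991), at percentile 8.53 of all shared pairs. An untreated peak with 12 fragments and no counterpart, 23.8 kb away at chr14:22871419-22871638, overlapped the upstream part of the start window of LRP10.

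MMP15, another membrane-anchored MMP, had a single weak peak. It lies on chromosome 16 from 58025754 to 58046901, and the untreated peak at chr16:58022066-58022267, with 8 fragments (3.45 to 15.8) and rank 28691, was 3.65 kb before its start and nearer to the end of USB1. The nearest etoposide summit to MMP15 was 69.0 kb away. This peak was not listed at -log10 q of at least 5.

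MMP16, the third membrane-anchored MMP of the set, is by far the longest gene, 295.5 kb on chromosome 8 from 88032011 to 88327483. All of its peaks lay inside its span, 8 untreated and 5 etoposide, and no other protein-coding gene lay in its window. Of these, 4 in each library were shared. The tallest, at chr8:88117668-88117872 in the untreated list, had 23 untreated and 21 etoposide fragments. The shared place at chr8:88269919-88270379 in the untreated list had the highest ratio of the set. It had 11 fragments (5.49 to 19.7) and rank 27235 untreated, and 19 fragments (11.4 to 29.7) and rank 3911 with etoposide. The ratio, 1.73 (0.781 to 4.02), was at percentile 98.3 of all shared pairs, and the 2 summits were 218 bp apart. The remaining shared places had 12 and 9 untreated and 13 and 7 etoposide fragments. The 4 peaks of the untreated library alone had 8, 15, 16 and 18 fragments, and the nearest etoposide summits were between 6000 bp and 36.3 kb away. The peak of the etoposide library alone, at chr8:88318876-88319072, had 8 fragments. By length the gene was less dense in peaks than TIMP2 or TIMP4, with 2.02 untreated peaks per 100 kb of its window where chromosome 8 had 1.15. The windows of MMP2, MMP9 and MMP14 were also denser in untreated peaks than their chromosomes. A chromosome was taken over its whole span, not over gene windows. Each of these genes had 2 untreated peaks, and 52.5% of protein-coding genes had at least as many. The windows of TIMP3 and MMP15 were less dense, 0.620 against 1.14 and 0.825 against 0.940.

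Over the places listed in both libraries, the heights could be set side by side for 19 pairs, from 18 untreated peaks, since the broad untreated peak beside MMP2 was paired with both etoposide peaks under it. The etoposide summit had fewer fragments in 16 of 19 pairs, the same number in 1 and more in 2, both of them in MMP16. The median ratio of etoposide to untreated fragments was 0.767, and over all 17119 shared pairs it was 0.769, with fewer etoposide fragments in 74.0%. With the MMP2 peak counted once, against the nearer etoposide summit, the etoposide summit had fewer fragments in 15 of 18 pairs and the median ratio was 0.772. The counting interval of the ratio held that overall median in 18 of 19 pairs. The exception was the MMP16 place with 11 and 19 fragments, whose lower bound was 0.781. It had the highest ratio of the 19 pairs, and its interval also held equal numbers. A pair enters only if both peaks passed the threshold of their list.

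**Figure D3:**
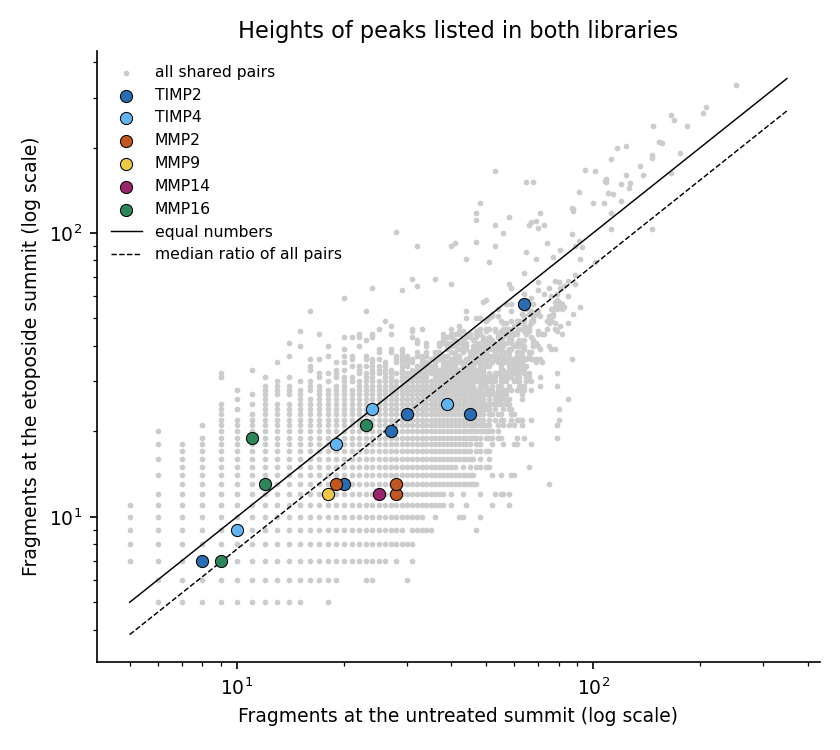
Fragments at the untreated summit (horizontal, log scale) and at the etoposide summit (vertical, log scale) for peaks listed in both libraries. Grey points are all shared pairs and coloured points the 19 pairs near the genes, with the solid line at equal numbers and the dashed line at the median ratio of all pairs, 0.769. The TIMP2 pair at 64 and 56 fragments is the tallest coloured point, and a single MMP16 point, at 11 and 19, lies well above the solid line.

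Peaks of the untreated library alone were the smaller ones of the set. The 14 of them had 8 to 20 fragments (median 11.5), and the 18 shared untreated peaks had a median of 21.5. Above the median rank of the untreated list 12 of 15 were shared, and below it 6 of 17. Over the whole list these shares were 70.4% and 31.6%. Of the 14, 4 overlapped a RefSeq start window (28.6%), all of neighbouring genes: ARAF beside TIMP1, USP36 and LOC124904067 beside TIMP2, ZNF335 beside MMP9 and LRP10 beside MMP14. Over all untreated peaks without a counterpart 10.2% did, and over those with one 4.15%. The 3 peaks of the etoposide library alone had 8 or 9 fragments and overlapped no start window, where 2.30% of all etoposide peaks without a counterpart did.

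Within 10 kb of the genes, 7 of 9 had an untreated and 5 of 9 an etoposide peak, where 49.6% and 38.9% of all protein-coding genes did. The 5 were TIMP2, TIMP4, MMP2, MMP14 and MMP16, which had peaks in both libraries, as 34.3% of all genes did. TIMP1 and MMP15 were again in the untreated library alone, 2 of 9 genes against 15.3%. TIMP3 and MMP9 had none, 2 of 9 genes against 45.8%. When only peaks whose nearest protein-coding gene is the member were counted, 16 untreated and 13 etoposide peaks remained, and both libraries had such peaks at TIMP2, TIMP4, MMP2, MMP14 and MMP16.

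Other genes of pericellular proteolysis, 36 in all, were counted in the same way. They too were chosen with earlier results of these data known. An untreated summit lay within 50 kb of 34 of them (94.4%, against 72.0% of all protein-coding genes) and an etoposide summit within 50 kb of 28 (77.8%, against 62.6%). Of the 34, 6 had untreated peaks alone (PCSK6, BSG, TFPI2, MMP19, MMP21 and MMP23B), which is 16.7% of the 36 and near the 13.5% of all genes. A2M and MMP11 had no peak in either library, 2 of 36 genes against 23.9% of all genes. The median over the 36 was 3 peaks per gene in both libraries, against 2 untreated and 1 etoposide over all genes. The 9 ADAM and ADAMTS proteases, several of which TIMP3 inhibits, all had peaks in both libraries, where 58.6% of all genes did. ADAM9 had the tallest untreated peak among them, with 69 fragments inside the gene, and its strongest etoposide peak, at another place in the gene, had 38. ADAM17, which sheds TNF, had 51 and 46 fragments at a place 48.1 kb away, and ADAM19 had 55 and 30 inside the gene.

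The 19 regulators and partners had untreated peaks at 18 genes (94.7%, against 72.0% of all genes) and etoposide peaks at 15 (78.9%, against 62.6%). The strongest were at CD9, a tetraspanin, with 58 and 34 fragments 32.2 kb away, and at the integrin subunits ITGB1 and ITGAV, with 55 and 36 and with 48 and 46 fragments, 47.4 and 46.2 kb away. RECK, a membrane-anchored inhibitor of MMPs, had 6 peaks in each library. The 3 genes listed as other membrane MMPs, MMP17, MMP24 and MMP25, all had peaks in both libraries, against 58.6% of all genes. The strongest lay beside MMP17, with 40 and 26 fragments. Of the 6 genes listed as other secreted MMPs, 5 had untreated peaks (83.3%, against 72.0% of all genes) and 2 had etoposide peaks (33.3%, against 62.6%). MMP17 was in that list too, although it is membrane-anchored, and MMP28 was the other gene with etoposide peaks. Whether the other genes of that list are all secreted was not checked. The 3 synapsin genes were counted apart. All 3 had peaks in both libraries, against 58.6% of all genes, and some of these are the peaks already given for TIMP1, TIMP3 and TIMP4.

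**Figure D4:**
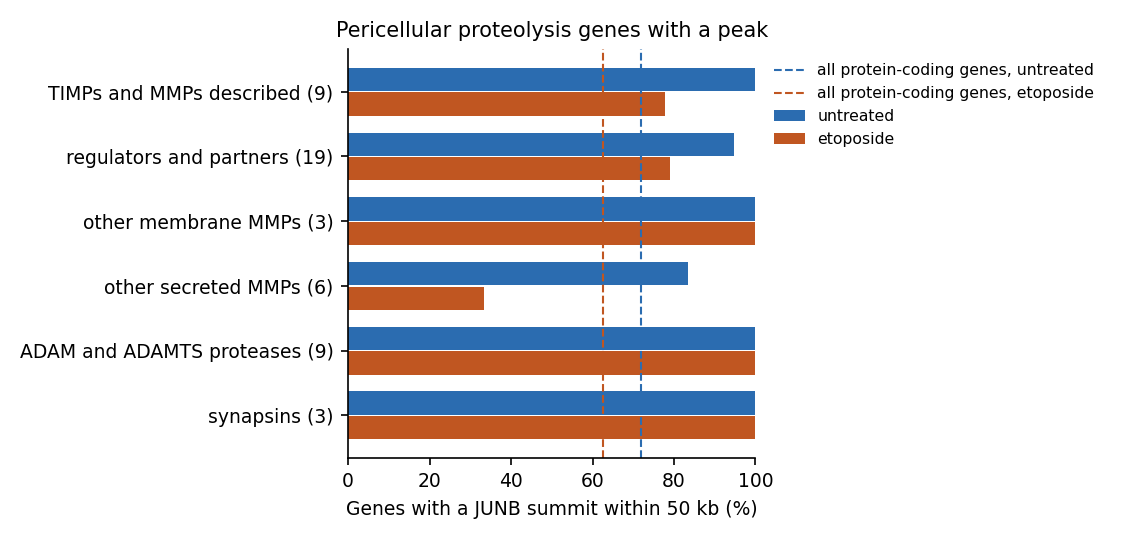
Share of genes with a JUNB summit within 50 kb (horizontal, percent) in the untreated (blue) and etoposide (orange) libraries, for the 9 genes described and the lists of related genes, with the number of genes in brackets. The synapsins are drawn too, although they are not proteolysis genes, and MMP17 is counted in both MMP lists. Dashed lines are the shares over all protein-coding genes, 72.0% untreated and 62.6% etoposide, and the list of other secreted MMPs is the one with its etoposide bar left of the dashed line.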

How the data were processed

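Reads were aligned with Bowtie2 and peaks called with MACS2, per the submitters' processing notes, which give no version or setting and name the builds hg38 and mm10. Contig names fit hg38. The data were the authors' 2 peak lists, 1 per library. The deposited fold is the ratio of signal at the summit to local background. The deposited -log10 p and -log10 q, and the deposited score (the whole part of 10 times -log10 q), are the authors' values, used only within their list. The lowest -log10 q lay just above that of a q of 0.01. No control library was used here.

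A whole number of fragments k and a background b with fold (k + 1)/(b + 1), pseudocount 1, and the Poisson tail above k gave the deposited -log10 p within 0.001 for 100% of peaks in both lists. The method was tested on simulated data. Relative depth, 0.836, is the ratio of lowest backgrounds divided by that of smallest peak widths, 189 and 202 bp, and rests on reading those as mean coverage and fragment length. Intervals are exact at 95% and cover counting error only. Peaks on chromosomes 1 to 22 and X were used, and densities per chromosome are over the span from first to last peak. Genes and start windows are from RefSeq GRCh38.p14. All 9 genes matched the annotation and 5 the start windows. The planned motif share under peaks was not run, since no genome sequence was used here. Gene distances were taken to the gene span, and exons were not used.

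The genes and lists were chosen with earlier results of these data known. All 9 genes were described. Peaks printed in full were chosen for being inside or within 10 kb of a gene, for being the strongest of a gene in a list, or for lacking a counterpart, and some others were added after their values were seen. Alternatives were the distance, a stricter threshold, equal list lengths and the definition of a shared peak. Scripts used Python 3.11.15, pandas 2.3.3 and scipy 1.17.1.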

Additional observations from a re-analysis of the deposited data

How the results depend on the processing

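Of 48 values recomputed under 10 alternatives, 40 stayed within counting error or within 1.5 times the reported count and 8 did not. Within 10 kb the peaks near the genes numbered 17 untreated and 12 etoposide. With lists of equal length 21 untreated peaks were left. Chosen after seeing the data, counting only peaks whose nearest protein-coding gene was the member gave 16 untreated and 13 etoposide peaks, with 5 genes in the untreated library, and leaving out TIMP2 and MMP16 gave 15 and 11. All 20 recomputed shared shares stayed inside the interval of the reported one. The etoposide share was the higher under all 10 alternatives, by the least with lists of equal length, at 71.4% and 72.7%. Nearly the same number of peaks is shared from either side, 18 and 19 in the main count. Except with equal lengths the etoposide peaks were fewer, so their share is the higher by arithmetic. This order is therefore no separate check. Within 100 kb all 9 genes had peaks in both libraries. No paired analysis was possible because there was 1 library per condition. The untreated peaks at TIMP1 and MMP15 had 8 or 9 fragments, and the lowest peak listed in either library had 5. Whether the absence of these peaks from the etoposide list is a difference between the libraries was not tested.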
